A study of Rattus norvegicus with 45 samples.

Results

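The cytosolic ribosomal protein genes were taken as the rows of the expression tables whose symbol fits a rule. It asks for Rpl (large subunit) or Rps (small subunit), a number, and at most 1 letter (a, l or x) and 1 further digit. The stalk proteins Rplp0, Rplp1 and Rplp2 and also Rpsa were included by name. Symbols such as Rpl36al and Rps4y2 fall outside the rule. The rule found 87 of the 20794 genes listed: 43 of the large subunit, 30 of the small subunit, the 3 stalk genes and 11 whose symbols mark them as paralogues, such as Rpl3l and Rps27l. Messenger RNA had been sequenced from male spontaneously hypertensive rats, an inbred strain with high blood pressure, aged 8 weeks and weighing 220 to 260 g. In the empagliflozin groups the rats received this inhibitor of the renal glucose transporter SGLT2 by gavage at 10 mg/kg per day for 30 days, and in the vehicle groups saline. Each group held 3 libraries, which the series describes as 3 rats per arm. Both arms covered brain, aorta, lung, kidney, both fats (brown and white) and the libraries titled V, and the atrium was represented by 3 empagliflozin libraries. Vehicle atrium was not analysed here. The tissue field of the V libraries names liver, whereas the series describes ventricle. They are named here by their label, V.

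A ribosome joins a small subunit, which reads the messenger RNA, to a large subunit, which forms the peptide bonds. Most of the proteins are present once per ribosome, and those made in excess are degraded. The stalk of the large subunit is built from Rplp0 and dimers of Rplp1 and Rplp2, and it recruits the GTPases that drive elongation. Messenger RNAs of ribosomal proteins begin with a cytosine followed by a run of pyrimidines, the 5′ terminal oligopyrimidine tract, through which mTORC1 and the RNA-binding protein LARP1 set their translation. These genes have many processed pseudogenes in mammals, and short reads cannot always be assigned to the gene rather than to its copy.

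Of the 87 genes, 66 had a start site sequence in RefSeq (rat build GRCr8, not the build of the expression tables). The longest run of C and T within 20 bases either side of the annotated start had a median of 9.5 bases in these 66, against 5.0 bases over 27457 genes. A run of at least 8 bases was present in 65.2% of the 66, against 15.5% of all genes. The letters CTTTCC occurred on the sense strand of this window in 16 of the 66 (24.2%, against 1.79% of all genes) and the letters CTCTTT in 15 (22.7%, against 1.63%), with both in 4. On the opposite strand each occurred in 1 of the 66 (1.52%, against 1.73% and 1.32% of all genes). These matches describe letters, not sites. The stretches shown run from 25 bases before the annotated start to 15 bases into the transcript, with the longest pyrimidine run in capitals. They were chosen because the results turn on these genes. The arms of the stalk gene Rplp1 did not overlap in kidney, though the arm test there did not call it. The values of Rpl9, Rpl38 and Rps13 moved alone. Rpl3l, a heart paralogue whose stretch holds a short run beyond the start, is shown beside Rpl3 and Rplp0.
Rplp1, chr8:71290858-71290897, minus strand: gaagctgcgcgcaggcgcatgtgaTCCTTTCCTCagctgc
Rplp0, chr12:46718376-46718415, minus strand: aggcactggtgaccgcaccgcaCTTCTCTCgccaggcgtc
Rpl9, chr14:43247565-43247604, plus strand: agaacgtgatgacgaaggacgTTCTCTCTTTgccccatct
Rpl38, chr10:100200410-100200449, plus strand: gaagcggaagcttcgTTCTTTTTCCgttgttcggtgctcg
Rps13, chr1:180009646-180009685, minus strand: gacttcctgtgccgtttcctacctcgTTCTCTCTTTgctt
Rpl3, chr7:113507976-113508015, minus strand: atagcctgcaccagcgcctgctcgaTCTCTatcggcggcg
Rpl3l, chr10:14258421-14258460, plus strand: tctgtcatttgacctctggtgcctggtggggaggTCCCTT

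The unit throughout is FPKM, the number of fragments scaled to transcript length and to the mapped fragments of the library, so levels are per length and can be set side by side between genes, but read depth is unknown. Over all genes they summed to 414248 to 824205 per library. In the V libraries the 8 cardiomyocyte markers summed to 45261 to 50517 FPKM with empagliflozin and 45534 to 49544 FPKM with vehicle. The 8 hepatocyte markers summed to 43.1 to 47.7 FPKM and 39.4 to 40.7 FPKM, with Fgb and Cps1 listed at 0 in all 6. The 2 aorta libraries numbered 1 were closest across genes to a brown fat library (r = 0.986 with empagliflozin, r = 0.981 with vehicle), and the aorta share, the vehicle aorta levels and the arm counts and medians in aorta are given with and without them. Of the 87 members, 80 were above 0 in every library.

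The ribosomal protein genes together made up between 4.3% and 18.6% of a library's summed FPKM, lowest in brain and highest in aorta. In the vehicle groups it averaged 4.55% ± 0.25 in brain, 5.83% ± 0.87 in the libraries labelled V, 6.09% ± 0.70 in kidney, 9.26% ± 1.26 in white fat, 9.49% ± 1.10 in brown fat, 10.7% ± 1.26 in lung and 14.6% ± 3.57 in aorta (SD, n = 3 each). The ranges of V and kidney overlapped, as did those of both fats and lung, while the vehicle brain and vehicle aorta libraries lay apart from every other vehicle tissue. With empagliflozin the shares were 4.79% ± 0.43 in brain, 5.83% ± 0.09 in V, 6.10% ± 0.25 in kidney, 10.6% ± 3.91 in white fat, 9.35% ± 0.89 in brown fat, 9.66% ± 0.35 in lung and 9.86% ± 1.94 in aorta. Without the aorta libraries numbered 1 the aorta shares were 10.0% ± 2.72 with empagliflozin and 15.9% ± 3.87 with vehicle (SD, n = 2 each). The empagliflozin atrium stood at 7.10% ± 0.99. In bulk tissue, fewer cells of a type and less RNA per cell cannot be told apart.

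**Figure D1:**
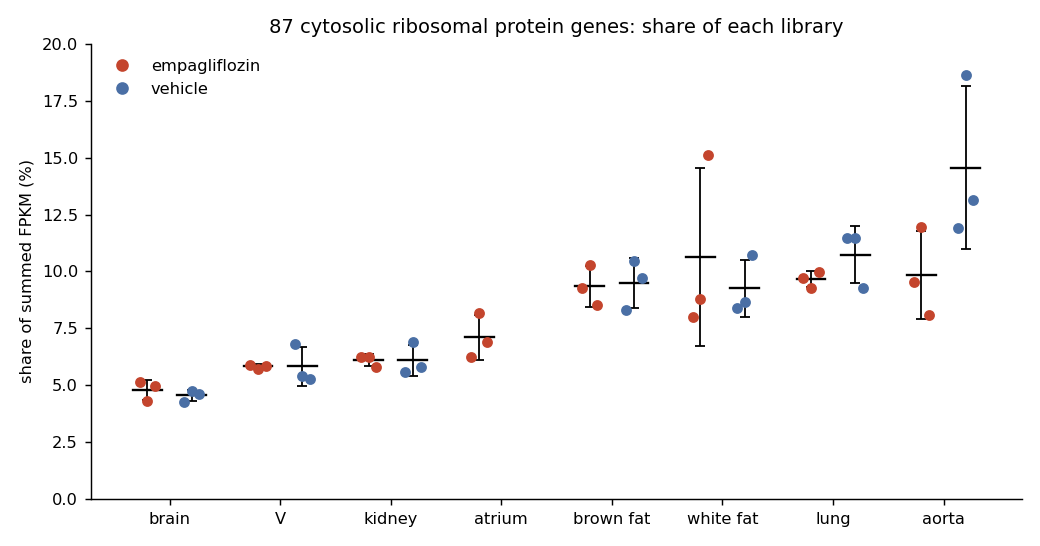
Share of each library's summed FPKM, in percent, held by the 87 ribosomal protein genes; points are libraries, bars the mean and SD of 3, red for empagliflozin and blue for vehicle. Brain libraries sit at 4.3% to 5.1%, and the vehicle aorta libraries, at 11.9% to 18.6%, are the highest vehicle group.

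Single members differed widely in level. Averaged over the 7 vehicle tissues, the highest were Rpl41, the shortest ribosomal protein, at 1755 FPKM, Rps29 at 1351 FPKM, Rpsa, which is also known as the laminin receptor, at 1298 FPKM, Rpl35 at 1272 FPKM and Rps15 at 1182 FPKM. The 5 lowest were the paralogues Rpl30l1 (0.383 FPKM), Rpl39l (0.411 FPKM), Rps18l1 (2.33 FPKM), Rpl10l (2.42 FPKM) and Rps27l (38.8 FPKM). In all libraries Rpl41 ranged between 424 FPKM in a vehicle brain library and 5158 FPKM in a vehicle aorta library.

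Each vehicle tissue was compared with the mean of the other 6 on the log2(FPKM + 1) scale, which understates differences of low genes. The test was limma's with Benjamini-Hochberg adjustment over 16539 genes, at a threshold of 0.05. Of the 86 members tested, 78 were lower in brain (33.9% of all genes were) and 1 higher (35.7%). In aorta 76 were higher (10.4%) and 1 lower (33.8%). In brown fat 35 were higher (15.8%) and 2 lower (41.0%), in white fat 11 higher (20.9%) and 2 lower (22.8%), and in lung 58 higher (40.4%) and 3 lower (19.9%). In kidney 1 was higher (25%) and 46 lower (30.7%), and in V 2 were higher (14.2%) and 40 lower (51.0%), fewer than the share of all genes. The members' median difference, set against that of all genes tested, was -1.44 and -0.01 in brain, 1.18 and -0.23 in aorta, 0.42 and -0.33 in brown fat, 0.22 and -0.01 in white fat, 0.60 and 0.27 in lung, -0.49 and -0.10 in kidney, and -0.44 and -0.45 in V.

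The direction of these differences held under each scaling of the libraries in brain, aorta and kidney, but their size depended on it in brain and aorta. Members called numbered 69 to 78 lower in brain, 66 to 77 higher in aorta and 43 to 46 lower in kidney. The same settings called 3802 to 7345 of 16539 genes lower in brain. In aorta they called 1045 to 2774 genes higher, and in kidney 4764 to 5677 lower. With quantile normalization, median-ratio scaling or equal FPKM sums the members' median stayed between -1.54 and -0.69 in brain, between 0.56 and 1.39 in aorta and between -0.55 and -0.44 in kidney. It fell to 0.13 in lung, 0.00 in white fat and -0.01 in V under median-ratio scaling, with 3, 1 and 3 members higher and 3, 2 and 2 lower. Of all genes, 4208, 2569 and 3683 were then higher and 5180, 4694 and 5927 lower. In brown fat the members' median turned to -0.12 under quantile normalization, with 7 members higher and 6 lower, beside 3882 and 4436 of all genes. Leaving out vehicle kidney library 1 or 3 left 22 or 27 members lower in kidney. Leaving out V library 2 or 3 left 18 or 10 lower in V, leaving out brown fat library 2 left 15 higher in brown fat, and leaving out lung library 1 or 2 left 31 or 28 higher in lung.

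Brain, the tissue with the lowest levels, was low in most members. In vehicle rats 82 of 86 had a negative difference there and 4 a positive one. Rpsa, a small subunit protein, was at 278, 323 and 320 FPKM in vehicle brain, against 559 to 3414 FPKM in all other vehicle libraries. Rplp0, the base of the stalk, was at 237, 246 and 280 FPKM in vehicle brain, against 626 to 2173 FPKM elsewhere. Neither gene's brain range met that of another vehicle tissue. The 12 members with the lowest p were Rps27l, Rplp0, Rpl18, Rpl14, Rpsa, Rps28, Rpl22, Rpl11, Rps18, Rpl7a, Rpl36 and Rpl12, with log2 differences between -2.72 and -1.62. Rpl5 and Rpl11, which carry the 5S RNA into the large subunit and bind MDM2 when assembly fails, were both lower in brain and in kidney and both higher in aorta. The single member called higher in brain, Rps18l1, was at 48.3 FPKM in vehicle library 1 and listed at 0 in libraries 2 and 3, and was not called without that library.

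In aorta the members with the lowest p included Rpsa, Rpl11, Rpl22, Rpl29, Rpl19, Rpl13a, Rplp1, Rpl37a, Rps4x, Rpl14 and Rps15a, with log2 differences between 0.99 and 1.78. Without vehicle aorta library 1, which resembled brown fat, 77 members were called higher, and without any other single library 75 to 78. In lung they included Rps19l2, Rps12, Rpl3, Rps3, Rpl12, Rpl6, Rpl17, Rpl10, Rps27l, Rpl4 and Rps6, between 0.64 and 1.28. In brown fat they included Rplp2, Rpsa, Rpl7a, Rplp1, Rpl3, Rps19l2, Rps3a, Rpl6, Rpl24, Rps19 and Rplp0, between 0.57 and 1.47, with all 3 stalk genes among them. In white fat the 11 called higher were Rpl3, Rplp2, Rps9l1, Rps28, Rplp1, Rpl7l1, Rps4x, Rpl14, Rpsa, Rps12 and Rpl32, between 0.33 and 1.0. Rpl38, the other member called lower there beside Rpl3l, changed by -3.28, with 260, 129 and 0 FPKM in the 3 vehicle white fat libraries. Without library 3 it was -0.77 and not called (adjusted p = 0.520).

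In kidney the lowest p after Rpl3l included those of Rps19l2, Rplp1, Rps15a, Rps3, Rps4x, Rpl6, Rps24, Rplp2, Rpl36a and Rps6, all lower, between -1.71 and -0.60. Rplp1 in vehicle kidney was at 188, 413 and 247 FPKM, and its ratio to its partner Rplp2 was 0.51, 0.81 and 0.61. In vehicle V the ratio lay between 0.53 and 0.70, and in vehicle aorta between 0.83 and 2.41. The single member called higher in kidney was Rps27l, a paralogue of Rps27 induced by p53 in human cells, with 51.6, 38.9 and 51.9 FPKM (0.64 ± 0.18, SE, adjusted p = 0.00488).

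In the libraries labelled V one paralogue stood at a high level while its parent was low. Rpl3, a core protein beside the peptidyl transferase centre, was at 99.8, 64.8 and 66.4 FPKM in vehicle V, against 192 to 672 FPKM in the other vehicle libraries. Its paralogue Rpl3l, which is known from striated muscle, was at 265, 303 and 257 FPKM in vehicle V, against 0 to 0.64 FPKM in the others. The groups did not overlap for either gene. On the log2(FPKM + 1) scale Rpl3 was lower by -2.39 ± 0.15 (SE, adjusted p = 9.1e-10) and Rpl3l higher by 7.77 ± 0.12 (adjusted p = 8.5e-19). Rpl3l made up 78.2% ± 5.01 of the sum of both in vehicle V and 80.2% ± 2.66 in empagliflozin V, and the sum was 352 ± 24.6 FPKM in vehicle V and 370 ± 18.7 FPKM in empagliflozin V (SD, n = 3). The call of Rpl3l as lower in the other tissues rests on the V libraries, which enter their mean, since all other vehicle libraries were at 0.64 FPKM or less.

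**Figure D2:**
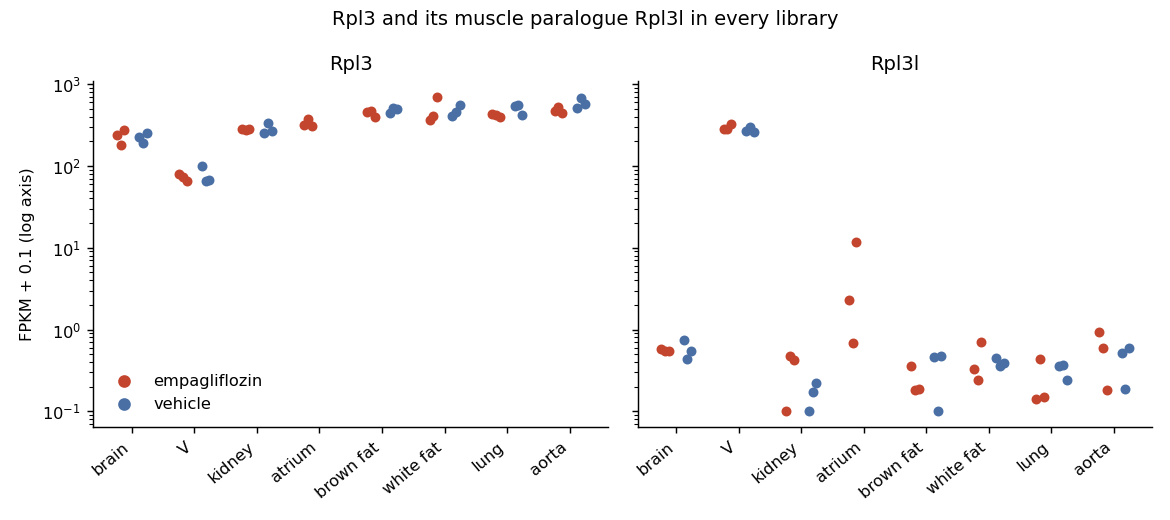
FPKM + 0.1 on a log axis of Rpl3 (left) and Rpl3l (right) in all 45 libraries, by tissue, red for empagliflozin and blue for vehicle. Rpl3l is at 257 to 324 FPKM in the libraries labelled V, at 0.58 to 11.7 FPKM in atrium and at 0.84 FPKM or less elsewhere, while Rpl3 is lowest in V.

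Atrium had the opposite levels. Rpl3 was at 314, 376 and 311 FPKM in atrium, against 80.6, 72.6 and 65.5 FPKM in V, both with empagliflozin, a difference of 2.18 ± 0.11 (SE, adjusted p = 5.0e-05). Rpl3l was at 2.17, 0.58 and 11.7 FPKM in atrium, against 286, 280 and 324 FPKM in V, a difference of -6.22 ± 0.67 (adjusted p = 0.00051). Rpl3l made up 0.69%, 0.15% and 3.61% of the sum of both in atrium, and the sum was 339 ± 32.7 FPKM. The ventricular light chain Myl2 was at 62.1, 7.38 and 115 FPKM in the same 3 atrium libraries and at 7379 to 8580 FPKM in empagliflozin V. The order of the 3 atrium libraries was the same for Rpl3l and Myl2, and the part of ventricular tissue in these values was not tested.

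Of 84 members tested, 18 were higher in atrium than in V (37.2% of all genes were) and 1 lower (14.5%). The higher ones with the lowest p after Rpl3 were Rps4x, Rpl21, Rpl5, Rpl30, Rpl7, Rpl36a, Rps6, Rps23, Rpl10, Rps3a and Rps9l1, between 0.39 and 0.81. The members' median difference was 0.20, beside 0.21 over all genes, and under median-ratio scaling it was -0.06, with 2 members higher and 1 lower. Quantile normalization gave 61 higher and 1 lower. Of 12541 genes, 2776 were higher and 3110 lower under median-ratio scaling, and 2798 and 2818 under quantile normalization. Without atrium library 1 there were 28 higher, and without V library 1, 2 or 3 there were 9, 8 or 10.

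Several other paralogues differed between tissues. Rpl10l, a retrogene of Rpl10 known from testis, was at 5.92, 9.92 and 9.87 FPKM in vehicle V, against 0.67 to 2.82 FPKM in the other vehicle libraries (2.01 ± 0.21, SE, adjusted p = 3.2e-07). In atrium it was at 10.7, 12.4 and 8.23 FPKM. Rps27l was at 4.85, 5.42 and 6.43 FPKM in vehicle brain, against 18.0 to 69.6 FPKM elsewhere (-2.72 ± 0.18, adjusted p = 2.7e-10), and stood at 15.2 to 30.1 FPKM in all 6 V libraries. Rpl7l1, a relative of Rpl7 that acts in ribosome assembly, was at 25.6 to 32.5 FPKM in all brain, V and atrium libraries and at 44.9 to 67.3 FPKM in all others. It was lower in vehicle brain and V (-0.72 ± 0.10 each) and called higher in aorta, both fats and lung. Rpl22l1, whose parent Rpl22 represses it in mice, was higher in vehicle lung (45.7 to 73.8 FPKM) and lower in vehicle brain (27.3 to 31.8 FPKM) and brown fat (21.3 to 38.5 FPKM). The brown fat call (-0.54, adjusted p = 0.0405) was lost under quantile normalization (0.0824), under median-ratio scaling (0.209) and without each of 7 single libraries, among them brown fat library 1 (-0.31, adjusted p = 0.294). Rpl39l and Rpl30l1 did not exceed 3.39 FPKM in any library. Rps9l1, Rps19l2 and Rps10l1 ran at the level of core members (474.7, 469.9 and 211 FPKM over vehicle tissues). The current RefSeq table gives the identifiers of Rps9l1 and Rps19l2 as Rps9 and Rps19, and calls Rps10l1 a pseudogene.

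Within a tissue the members mostly moved as a block between libraries. Over the 82 members with at least 1 FPKM in every group, the median SD of log2(FPKM + 1) over the 6 libraries was 0.51 in white fat, 0.46 in aorta, 0.25 in brown fat, 0.22 in lung, 0.21 in V and 0.15 in both kidney and brain. After the median of the members in each library was taken off, it was 0.11 in white fat, 0.20 in aorta, 0.09 in brown fat, 0.08 in lung, 0.11 in V and 0.09 in both kidney and brain. In every tissue but brain a single library held most of the highest values. Of the 82 members, 79 had their highest white fat value in empagliflozin library 3, 73 their highest brown fat value in vehicle library 2, 71 their highest V value in vehicle library 1 and 68 their highest kidney value in vehicle library 2. The shares of all genes with their highest value in those libraries were 23.2%, 17.0%, 25.8% and 13.2%. In aorta vehicle library 2 held the highest value of 62 members (15.9% of all genes), and in lung vehicle library 2 that of 49 (20.8%). Among the 3 atrium libraries, library 2 held the highest value of 80 members (24.4%). In brain the highest values were spread over empagliflozin libraries 3 (35 members, 42.2% of all genes) and 1 (31 members, 9.64% of all genes).

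Empagliflozin was compared with vehicle in each tissue separately, over the genes whose mean reached 1 FPKM in an arm. In all 7 tissues limma called 0 members. Across all genes it called 1 higher in brown fat (0.0085%), 1 lower in white fat (0.00785%) and 1 lower in V (0.0085%), and 0 (0.0%) in kidney, aorta, brain and lung. At an unadjusted p under 0.05 there were 7 members in kidney, 3 in lung, 1 in aorta and 0 in brain, brown fat, white fat and V. The shares of all genes at that p were 11.7% in kidney, 8.68% in white fat, 7.62% in lung, 4.05% in V, 3.56% in brown fat, 2.57% in brain and 1.1% in aorta. The smallest adjusted p of a member was 0.418 in kidney, 0.579 in white fat, 0.634 in lung and between 0.982 and 0.999 in aorta, V, brain and brown fat. The medians therefore describe the libraries. The members' median change, beside that of all genes, was -0.57 and 0.18 in aorta, -0.20 and 0.03 in lung, 0.21 and -0.18 in white fat, -0.09 and 0.05 in brown fat, 0.10 and 0.05 in brain, -0.03 and 0.10 in kidney, and 0.03 and 0.01 in V.

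**Figure D3:**
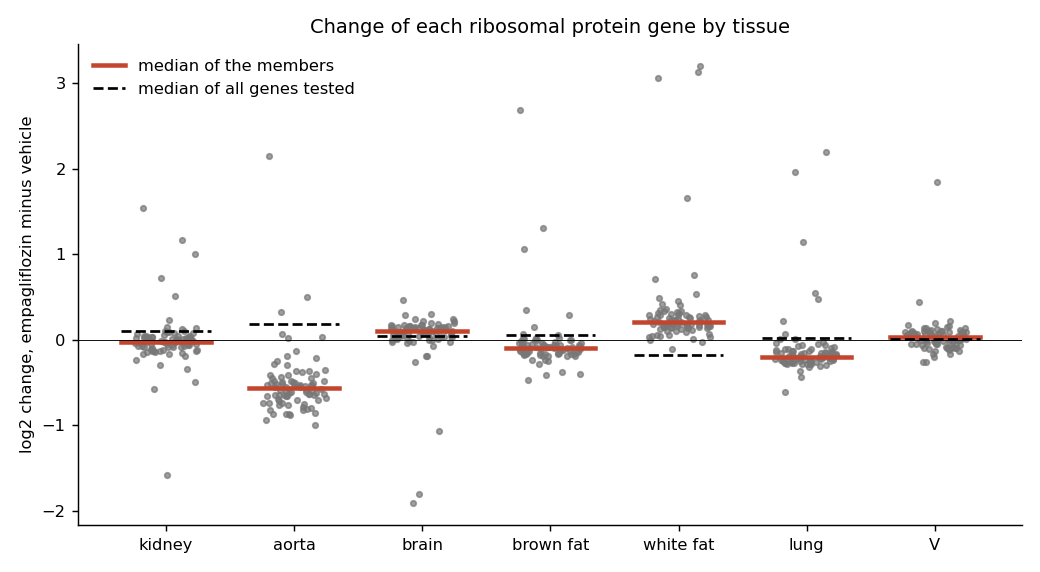
Log2 change of FPKM + 1, empagliflozin minus vehicle, of each member tested (grey points) in 7 tissues, with the median of the members (red line) and of all genes tested (dashed line). Most members lie near their median, -0.57 in aorta and 0.21 in white fat, and single members stand 1 or more away from it.

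In kidney the arms of 2 members did not overlap with empagliflozin higher and of 5 with empagliflozin lower, out of 84, when 13.6% and 5.56% of all genes did so. Rplp1 was at 895, 727 and 740 FPKM in empagliflozin kidney, against 188, 413 and 247 FPKM in vehicle kidney. Every empagliflozin library lay above every vehicle library. The change was 1.55 ± 0.28 on the log2 scale (SE, adjusted p = 0.418). Its partners showed no such gap: Rplp2 was at 476, 425 and 405 FPKM with empagliflozin and 372, 511 and 405 FPKM with vehicle, and Rplp0 at 777, 797 and 573 FPKM and 816, 935 and 769 FPKM. The ratio of Rplp1 to Rplp2 was 1.88, 1.71 and 1.82 with empagliflozin, against 0.51, 0.81 and 0.61 with vehicle. With its 2 RefSeq copies added, Rplp1 was at 899, 729 and 741 FPKM, against 190, 414 and 247 FPKM.

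The difference between tissues was tested in 1 model of 42 libraries, as the arm difference in a tissue minus the mean of the other 6. The model took all libraries as independent. With 3 rats per arm, several tissues may come from the same rat, and this was not modelled. Rplp1 was the only member called, in kidney (1 of 87, beside 0.487% of all genes called higher and 0.309% lower there), at 1.68 ± 0.35 (SE, adjusted p = 0.00898). The other 6 tissues had 0 members called, with 42 of 87 at an unadjusted p under 0.05 in aorta (13.3% of all genes), 4 in white fat (12.98%), 1 in lung (5.18%) and 0 in brain (5.29%), brown fat (0.96%) and V (1.78%). In kidney there were 3 (7.94%). Without both aorta libraries numbered 1, 25 members were at that p in aorta (21.5% of all genes). None of the members was called there, beside 3.77% of all genes called higher and 2.66% lower. Without vehicle aorta library 1 alone, 5 were called lower (Rps16, Rps21, Rps23, Rps27 and Rpl27a), without vehicle aorta library 3 Rpl39, and without empagliflozin aorta library 2 Rps16. The shares of all genes called with 1 library left out are not reported here. In the full fit the shares of all genes called higher and lower were 0.0951% and 0.0% in aorta. They were 0.119% and 0.256% in white fat, 0.416% and 0.321% in lung, and 0.244% each in brain. In brown fat they were 0.0% each, and in V 0.0% and 0.0178%. The call of Rplp1 was lost without vehicle kidney library 1 (adjusted p = 0.107), without empagliflozin kidney library 3 (0.0526) and under median-ratio scaling (0.0587). In the fit of all tissues at once, which takes 1 spread per gene from all 42 libraries, its kidney change had an adjusted p of 0.00514. Its change elsewhere was -0.64 in aorta, -0.44 in lung, -0.28 in brown fat, 0.01 in V, 0.08 in brain and 0.45 in white fat, none of them called.

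A pair of rows for one protein moved in opposite directions in kidney. Rps19, a small subunit protein needed for the maturation of 18S RNA, was at 50.8, 76.2 and 87.0 FPKM with empagliflozin, against 190, 235 and 206 FPKM with vehicle (-1.58 ± 0.21, SE, adjusted p = 0.418). Rps19l2, which RefSeq lists as Rps19, was at 333, 296 and 232 FPKM, against 135, 163 and 129 FPKM (1.0 ± 0.17). The sum of both was 384, 372 and 319 FPKM with empagliflozin and 324, 397 and 335 FPKM with vehicle, and these overlapped. Without empagliflozin kidney library 2, Rps19, Rps19l2 and Rplp1 were all called (adjusted p = 0.0255, 0.0416 and 0.0447).

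**Figure D4:**
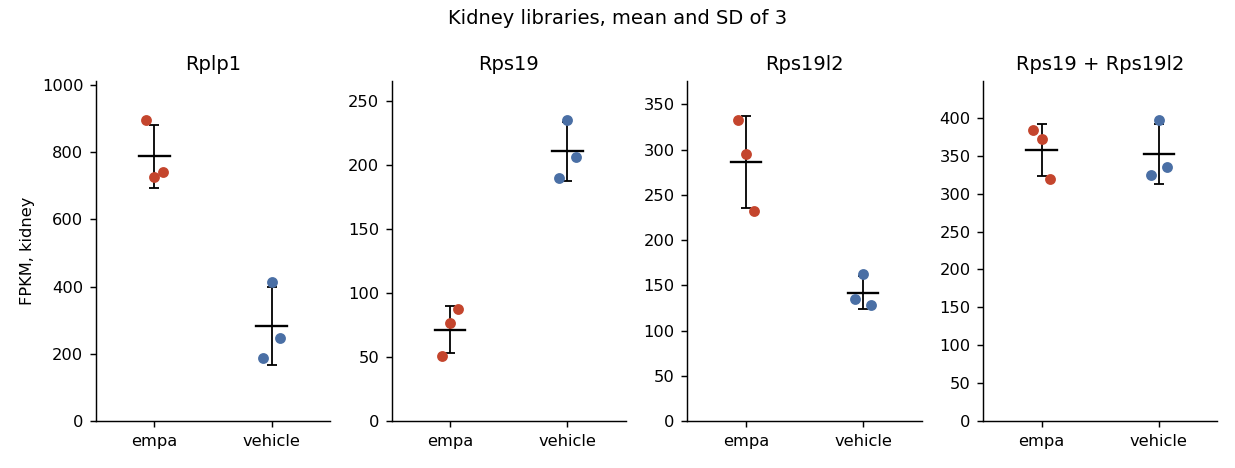
FPKM in the 3 empagliflozin (red, left) and 3 vehicle (blue, right) kidney libraries of Rplp1, Rps19, Rps19l2 and the sum of Rps19 and Rps19l2, with mean and SD. The arms do not overlap for the 3 single rows and overlap for the sum, at 319 to 384 FPKM with empagliflozin and 324 to 397 FPKM with vehicle.

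The other members whose kidney arms did not overlap were Rpl35a, Rps18, Rps26 and Rps28, all lower with empagliflozin. Rps26 was at 112, 132 and 147 FPKM with empagliflozin, against 184, 191 and 174 FPKM with vehicle. With its copies added it was at 506, 514 and 453 FPKM, against 501, 633 and 515 FPKM, so the arms overlapped. Rpl35a was at 83.6, 86.4 and 66.1 FPKM, against 93.7, 127 and 134 FPKM, and with its copies at 491, 431 and 410 FPKM, against 422, 472 and 406 FPKM. The identifier of this Rpl35a row had no RefSeq match, and the row that RefSeq calls Rpl35a is counted among the copies. Rps13, the member with the third lowest p among those higher (0.72 ± 0.24), was at 142, 211 and 180 FPKM with empagliflozin and 94.6, 149 and 84.9 FPKM with vehicle, and with its copies at 273, 259 and 264 FPKM, against 240, 285 and 249 FPKM. With copies summed, 1 family was apart with empagliflozin higher, Rplp1, and 3 lower, Rpl10, Rps18 and Rps28. The ratio of large to small subunit FPKM was 1.67, 1.64 and 1.68 with empagliflozin, against 1.58, 1.57 and 1.58 with vehicle. Without Rplp1 it was 1.61, 1.58 and 1.61, against 1.57, 1.55 and 1.56. The sums behind this ratio leave out the 11 members marked as paralogues by symbol. They thus keep the Rps19 row, which was lower with empagliflozin, and omit the Rps19l2 row, which was higher. The ratio with Rps19l2 counted was not computed. In vehicle kidney library 2, where most members were highest, 5 of 6 white adipocyte markers were highest too, with a sum of 75.4 FPKM, against 20.3 to 28.2 FPKM in the empagliflozin and 11.3 and 14.2 FPKM in the other vehicle libraries. Smooth muscle markers summed to 58.3 to 117 FPKM with empagliflozin, against 74.8 to 165 FPKM with vehicle, with 0 of 6 at a higher mean with empagliflozin. The 5 proliferation markers all had a higher mean with empagliflozin, with sums of 5.15 to 12.0 FPKM, against 2.38 to 4.08 FPKM. No marker of these 3 lists was at 0 in all libraries of an arm. Empagliflozin kidney library 3 held the highest value of 50.7% of all genes. The part of these in the kidney values was not tested.

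In aorta 78 of 84 members had a negative change, and for 39 of them the arms did not overlap, with empagliflozin lower, when 1.16% of all genes did so, and for 0 with it higher (5.59%). None was called, and the spread between libraries was wide. Rpl41 was at 1845, 2317 and 1792 FPKM with empagliflozin, against 3180, 5158 and 2831 FPKM with vehicle. Rps27, a zinc-finger protein of the small subunit, was at 923, 1212 and 849 FPKM, against 1362, 3350 and 1301 FPKM. Rplp1 was at 1446, 1301 and 1393 FPKM, against 2495, 2673 and 1479 FPKM. In each the vehicle libraries lay above the empagliflozin libraries, and the vehicle libraries varied more. The 3 lowest p among members with lower values were those of Rpl35a (-0.99 ± 0.37), Rps26 (-0.93 ± 0.45) and Rps21 (-0.86 ± 0.46), and among those with higher values Rps18l1 (2.15 ± 1.70), Rpl10l (0.32 ± 0.33) and Rpl37 (0.51 ± 1.68). With copies summed, the arms of 40 of 81 families did not overlap, all with empagliflozin lower. Without the libraries numbered 1, with 2 libraries left in each arm, the arms of 55 of 83 members were apart with empagliflozin lower (15.6% of all genes were) and of 2 with it higher (18.3%), and of 59 and 2 of 81 families.

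The members' median in aorta was -0.57, and -0.56 without both libraries numbered 1. It kept its sign under each scaling, at -0.24 with quantile normalization, -0.81 with median-ratio scaling and -0.51 with equal sums, and with any 1 library left out it was -0.74 to -0.41. The large subunit (41 of 43 negative, median -0.55), the small subunit (29 of 30, -0.64) and the stalk (3 of 3, -0.45) all had negative medians. Without the libraries numbered 1 these were -0.56, -0.63 and -0.30. Cell type markers, none of them called, also differed between the arms in aorta. All 6 smooth muscle markers had a lower mean with empagliflozin, with sums of 367 to 12427 FPKM, against 403 to 20944 FPKM with vehicle. All 5 erythroid markers had a higher mean, with sums of 15108 to 176556 FPKM, against 4566 to 37398 FPKM. The 6 brown adipocyte markers, of which Elovl3 was listed at 0 in both arms, summed to 376 to 14352 FPKM, against 86.6 to 21442 FPKM, with 4 higher. Leaving out the libraries numbered 1 did not even out the arms. Brown adipocyte markers summed to 376 and 7587 FPKM in empagliflozin libraries 2 and 3, against 1391 and 86.6 FPKM in vehicle libraries 2 and 3. Smooth muscle markers summed to 12427 and 5427 FPKM, against 20944 and 19011 FPKM. Erythroid markers summed to 36474 and 176556 FPKM, against 37398 and 14143 FPKM. The part of these markers in the members' change was not tested.

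In white fat the direction rested on 1 library. The members' median was 0.21 with 81 of 84 positive, and -0.21 without empagliflozin library 3. Rpl41 was at 1213, 1480 and 4146 FPKM with empagliflozin and at 1585, 1566 and 2312 FPKM with vehicle, and Rpsa at 1086, 1308 and 3352 FPKM and at 1295, 1343 and 1609 FPKM. In both genes the third empagliflozin library was the highest of the 6, and libraries 1 and 2 lay below the vehicle values, except Rpsa in library 2, which lay just above the lowest vehicle value. In empagliflozin library 3, 6 of 6 brown adipocyte markers were highest, with a sum of 2206 FPKM, against 106 and 133 FPKM in the other empagliflozin and 77.5 to 106 FPKM in the vehicle libraries, where Elovl3 was listed at 0. Lung markers were high in the other empagliflozin libraries, with sums of 155, 97.1 and 9.19 FPKM in libraries 1, 2 and 3, against 17.4 to 23.4 FPKM with vehicle, where Sftpb and Sftpa1 were listed at 0. Of these 6 markers, 5 had a higher mean with empagliflozin. All 6 mesothelial markers did so too, with 138 to 270 FPKM, against 13.9 to 92.0 FPKM, and 0 of 5 macrophage markers, with 21.9 to 41.6 FPKM, against 44.9 to 117 FPKM, with none at 0 in a whole arm. The part of these markers in the result was not tested. Arms that did not overlap were those of Rpl37 and Rps13, both higher with empagliflozin (5.09% of all genes were), and 0 were lower (12.1%). With copies summed, only Rpl37 stayed apart. The lowest p belonged to Rps13 (0.76 ± 0.35), Rpl8 (0.71 ± 0.36) and Rpl38 (3.13 ± 1.86) among the positive and to Rps28, Rps26 and Rpl35a (-0.11 to 0.00) among the negative. All 3 positive ones had their lowest value in vehicle library 3, with 92.8 FPKM for Rps13, 212 FPKM for Rpl8 and a listed 0 for Rpl38.

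In lung 77 of 86 members had a negative change, with a median of -0.20 that was -0.35 to -0.11 with any 1 library left out and -0.03 with quantile normalization. Rplp1 was at 785, 905 and 885 FPKM with empagliflozin, against 1388, 1215 and 924 FPKM with vehicle (-0.44 ± 0.18), and Rps19l2 at 647, 592 and 672 FPKM, against 932, 765 and 682 FPKM (-0.31 ± 0.15). These were the 2 members with empagliflozin lower and no overlap (4.84% of all genes were), and Rpl10l was the only one higher (0.48 ± 0.19, with 8.02% of all genes). The sum of Rps19l2 and Rps19 was 746 to 873 FPKM with empagliflozin, against 737 to 976 FPKM with vehicle, so the arms overlapped. With copies summed, only Rplp1 stayed apart with empagliflozin lower and only Rpl10l with it higher. Rpl3 (-0.28 ± 0.14), Rps19 (1.15 ± 0.46) and Rps18l1 (1.96 ± 1.53) complete the lowest p of each direction. Vehicle libraries 1 and 2 held the highest value of 30 and 49 of the 82 members, and vehicle library 3 the lowest of 50. The 10 lymphocyte markers summed to 334 and 251 FPKM in vehicle libraries 1 and 2, which held the highest value of 6 and 4 of them, against 125 to 234 FPKM with empagliflozin and 124 FPKM in vehicle library 3. All 5 proliferation markers had a lower mean with empagliflozin, with sums of 10.8 to 18.7 FPKM, against 19.3 to 57.8 FPKM, and all 6 mesothelial markers a higher one, with 308 to 381 FPKM, against 197 to 238 FPKM. None of these markers was at 0 in a whole arm, and their part in the result was not tested.

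In brain 72 of 84 members were positive, and arms were apart for Rpl35 and Rps10l1, both higher with empagliflozin (3.64% of all genes were), and for 0 with it lower (2.29%). With Rps10l1 summed with Rps10 and copies added, only Rpl35 stayed apart. Rpl10l (0.46 ± 0.26), Rpl24 (0.22 ± 0.12) and Rps19l2 (0.30 ± 0.18) had the lowest p of the positive, and Rps19 (-1.07 ± 0.62), Rpl9 (-1.91 ± 1.12) and Rps18l1 (-1.80 ± 1.48) of the negative. All 6 smooth muscle markers were highest in empagliflozin brain library 3, with a sum of 272 FPKM, against 36.5 and 43.3 FPKM in the other empagliflozin and 29.2 to 73.3 FPKM in the vehicle libraries. All 5 erythroid markers had a higher mean with empagliflozin, with 542 to 759 FPKM, against 281 to 735 FPKM, as had all 5 macrophage markers, with 24.8 to 50.1 FPKM, against 26.6 to 31.4 FPKM. Of the 7 brain markers, 3 had a higher mean with empagliflozin, with sums of 5073 to 6499 FPKM, against 3611 to 7832 FPKM. In empagliflozin library 3 Slc17a7 was at 7.31 FPKM, against 331 to 716 FPKM in the other brain libraries. Nrgn was at 119 FPKM there, against 729 to 1826 FPKM. Snap25 and Syt1 were lowest in that library too, Gfap was highest, and Mbp and Gad1 lay within the range of the others. None of these markers was at 0 in a whole arm, and their part in the brain values was not tested. In brown fat 69 of 84 were negative, but the median was -0.09, was 0.00 with quantile normalization and turned to 0.04 at one end of the range over left-out libraries. Rps18l1 (1.31 ± 0.97), Rpl9 (2.69 ± 2.12), Rpl38 (1.06 ± 0.85), Rpl22l1 (-0.41 ± 0.25), Rps19 (-0.38 ± 0.23) and Rpl35a (-0.47 ± 0.30) had the lowest p. In V 52 of 84 were positive, and Rps20 (0.44 ± 0.23), Rpl15 (0.23 ± 0.13), Rpl8 (0.14 ± 0.10), Rpl41 (-0.26 ± 0.21), Rpl36a (-0.25 ± 0.22) and Rps26 (-0.16 ± 0.15) had the lowest p. In brown fat and V 0 members had arms apart, when 5.84% and 5.21% of all genes were apart with empagliflozin higher and 2.54% and 3.87% with it lower. In V the change of Rpl3 was -0.05 ± 0.17 and that of Rpl3l 0.11 ± 0.10 (SE), neither beyond the spread.

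Genes around the ribosome were counted from lists. Of 17 other messenger RNAs known to carry the pyrimidine tract, among them elongation factors and Npm1, of 20 initiation factors, 28 ribosome assembly factors, 11 subunits and factors of RNA polymerase I and 18 regulators of translation such as Mtor and Larp1, 0 were called by arm in any tissue. In lung 17 of 17 tract mRNAs had a negative change, with a median of -0.24, beside 24 of 28 assembly factors (-0.11) and 4 of 11 polymerase I genes. In aorta 12 of the 17 were negative (-0.14), but 14 of 20 initiation factors and 14 of 18 translation regulators were positive. In white fat 16 of the 17 were positive (0.22). Between vehicle tissues, 13 of the 17 tract mRNAs were lower in brain (33.9% of all genes were), 10 higher in aorta (10.4%) and 12 higher in lung (40.4%). Of the 11 polymerase I genes, 3 were higher (35.7%) and 1 lower (33.9%) in brain, and 0 higher (10.4%) and 2 lower (33.8%) in aorta. In V 21 of 28 assembly factors were lower (51.0%).

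Members that moved alone were sought by taking the median of the 82 members off each library and marking a member whose remainder departed from its tissue median by at least 1 on the log2 scale. Of 674 member and tissue pairs, 43 held such a departure, in 16 members and 64 single values. The other 71 members had none. In 37 of the 43 pairs the gene shares its family with another row, a copy that RefSeq names after it or another member. When these rows were summed, 4 of the 37 still departed: Rpl37, which RefSeq lists as Rpl37l1, in 3 tissues and Rplp1 in kidney. For Rps18l1 (6 tissues) and Rpl30l1 (1 tissue) the sum adds the far more abundant parent, Rps18 or Rpl30. Those sums cannot show whether reads were exchanged. For Rps19 (4 tissues) the sum adds the member Rps19l2, which RefSeq lists as Rps19. Outside the members the tables hold 88 further rows with a ribosomal protein name in RefSeq, counted here as copies, 45 of them pseudogenes by RefSeq. They include Rpl36al and Rps4y2, which were not summed into the family of a member. Of the 88, 40 averaged at least 1 FPKM and 13 at least 100 FPKM.

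Rpl9, a large subunit protein, departed most often, in 19 libraries of 7 tissues. In brown fat it was at 319, 466 and 409 FPKM with empagliflozin, against 371, 610 and 0 FPKM with vehicle. Together with its copies, mainly LOC100360449, it was at 847, 1031 and 764 FPKM, against 797, 1256 and 1020 FPKM. The third vehicle library, listed at 0 for the gene, was second highest of its arm in the sum. In white fat Rpl9 was at 237, 83.5 and 0 FPKM, against 33.4, 0 and 0 FPKM, and the sum was 605, 707 and 1680 FPKM, against 647, 713 and 882 FPKM. The copy LOC100360449 averaged 522 FPKM over all libraries.

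The members Rpl9, Rpl37, Rpl38, Rps13 and Rps20 departed downwards together in vehicle library 3 of aorta, brown fat and white fat and in empagliflozin aorta library 2, with Rpl8 low too in that white fat library. Rpl38 was at 612, 665 and 542 FPKM in empagliflozin brown fat, against 560, 757 and 56.2 FPKM in vehicle brown fat, and at 801, 1012 and 720 FPKM, against 706, 1209 and 865 FPKM, with its copies. Rps20 was at 456, 622 and 492 FPKM, against 532, 754 and 190 FPKM, and with its copies at 838, 1150 and 780 FPKM, against 746, 1328 and 995 FPKM. Rps13 was at 320, 406 and 358 FPKM, against 370, 540 and 113 FPKM, and with its copies at 440, 561 and 446 FPKM, against 422, 741 and 516 FPKM. For these 3 genes the low library was in the middle of its arm once copies were added. Rpl37 still departed with its copies: it was at 394, 389 and 368 FPKM in empagliflozin white fat, against 281, 256 and 0 FPKM in vehicle white fat, and with its copies at 397, 393 and 373 FPKM, against 286, 264 and 4.68 FPKM. RefSeq gives the identifier of this row as Rpl37l1, and none of the copies summed carries the RefSeq name Rpl37.

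**Figure D5:**
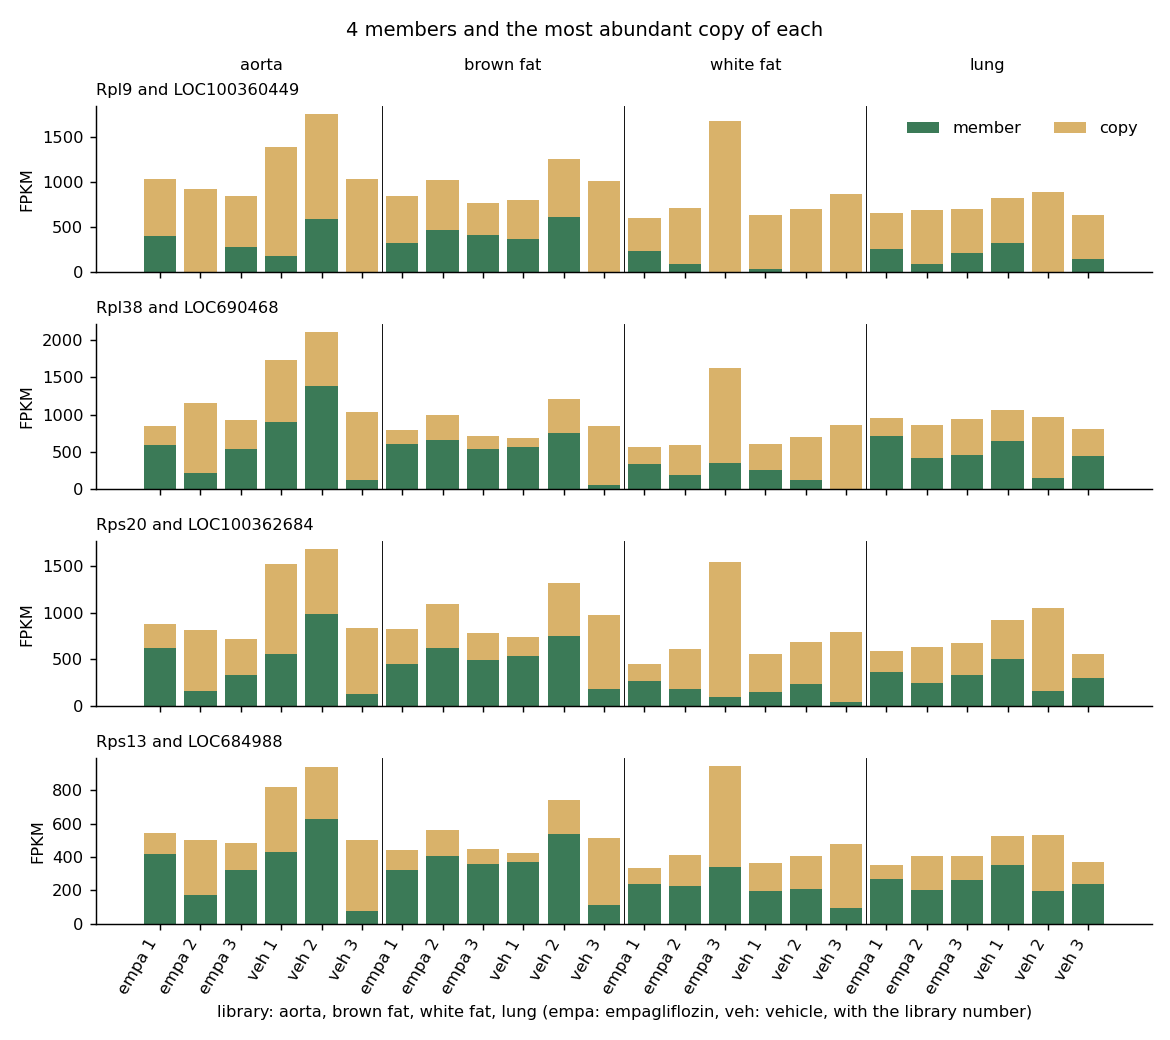
FPKM of Rpl9, Rpl38, Rps20 and Rps13 (green) with the most abundant copy of each stacked on top (sand) in the aorta, brown fat, white fat and lung libraries, empagliflozin before vehicle in each tissue. In vehicle library 3 of aorta, brown fat and white fat the green part is short or absent and the stack is within the range of the other libraries.

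Rps18l1 mostly departed upwards. It was listed at 0 in 34 of 45 libraries and reached 86.4 FPKM in empagliflozin aorta library 1, 63.8 FPKM in empagliflozin lung library 2, 48.3 FPKM in vehicle brain library 1 and 30.5 FPKM in empagliflozin white fat library 2. Rps18 was at 125 FPKM in that brain library, against 188 and 177 FPKM in the other vehicle brain libraries, and the sum of both was at 173, 188 and 177 FPKM. In Rps19 departures occurred in aorta, brain, kidney and lung, and none remained in the sum with Rps19l2. The departures without a copy were those of Rpl10l, Rpl39l, Rpl3l, Rpl7l1 and Rplp2. Rplp2 in vehicle aorta was at 2988, 1108 and 1021 FPKM, with library 2 marked as low against its other members, while Rplp0 was at 2173, 1819 and 1325 FPKM. Counting by family left every arm comparison at 0 members called and kept Rplp1 as the only call of the difference between tissues (adjusted p = 0.00853).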

How the data were processed

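RNA from 8 rat tissues was sequenced single-end (50 bases), as the labels' protocols state. Tools named in the submitters' processing notes are Bowtie2 2.2.5 and HISAT2 2.0.4, with build Rnor 6.0. Which program counted reads is not given in the sources. The authors deposited FPKM per gene and library, which are not counts, so depth is unknown and no counting interval was made. How reads shared with copies were assigned is not given either.

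All 45 libraries were used, grouped by tissue and arm as labelled. Members were matched by symbol. By gene ID 84 of 87 matched the RefSeq table (GRCr8, names only), under another symbol in 5. A family is a gene with the copies RefSeq names after it. The members Rps18l1, Rpl30l1, Rps19l2 and Rps10l1 were summed with the gene of the same stem. Tests were limma 3.58.1 in R 4.3.3 on log2(FPKM + 1) with an intensity trend, two-sided, over genes whose mean reached 1 FPKM in some group, adjusted by Benjamini-Hochberg over all genes tested. Exact permutation of 3 libraries against 3 has a smallest two-sided p of 0.1. Summaries used Python 3.11.15 and pandas 2.3.3. The fits were tested on simulated data. Members and lists were chosen with earlier results of these data known.

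Members named were those called, up to 12 per direction by p, or, with none called, the 3 of lowest p in each direction; the paralogues; those that moved alone; and the 5 highest and 5 lowest. Some members that these rules name are not reported here. Alternatives were 3 scalings, a pseudocount of 0.1, no filter or at least 5 FPKM, robust empirical Bayes, each library left out, the replicate number as a block, and 1 fit of all tissues. Centring on the members' median, summed families and leaving out aorta libraries were added after seeing the data. Replicate numbers come from the titles. Deviations from the arm means correlated within all same-numbered pairs in lung only (r = 0.227, 0.303 and 0.346). The main lung fit was unpaired like that of every other tissue, and the arms are different rats. The replicate number entered only as the block alternative. No fit modelled a rat that gave several tissues.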

Additional observations from a re-analysis of the deposited data

Results flagged for a closer look

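The change of Rplp1 with empagliflozin in kidney exceeded the mean change of the other 6 tissues by 1.68 on the log2 scale (SE 0.35, limma's adjusted p = 0.00898), which a test of the difference itself picked out. All 3 empagliflozin kidney libraries (727 to 895 FPKM) lay above all 3 vehicle kidney libraries (188 to 413 FPKM). Empagliflozin kidney was near the lung level (785 to 905 FPKM with empagliflozin), and vehicle kidney near the V level (294 to 355 FPKM with vehicle). No group had more than 3 libraries, so single libraries were not screened as outliers.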

How the results depend on the processing

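Among counts of called members and medians, 1475 values stayed within the limits set and 81 moved. Among named members, 3730 kept direction and side of the threshold, 172 lost the call, 4 gained one and 3 changed sign: Rpl29 (-0.0208) and Rpl14 (-0.2167) in aorta after centring on the members' median, and Rpl6 in brown fat (-0.029) under quantile normalization. The cause was not tested. Quantile normalization gave 61 members higher in atrium than V, 7 higher and 6 lower in brown fat, 40 higher in white fat, 2 higher in kidney, 2 called for the kidney arm difference against other tissues, and an aorta arm median of -0.24. Median-ratio scaling gave 2 higher in atrium than V, 1 lower in brown fat, 1 higher in white fat, 3 higher in lung, 2 lower in V, 0 for the kidney difference and a kidney arm median of -0.16. Equal FPKM sums gave 20 higher in brown fat, 18 higher in white fat and 62 lower in V. Of 16539 genes, 2045, 3181 and 8657 were so called. Quantile normalization called 3318 of these genes higher in white fat and 3917 in kidney, and median-ratio scaling 5937 lower in brown fat. For the kidney arm difference, quantile normalization called 75 of 16822 genes higher. With no filter 2 were higher in brain, with all tissues in 1 fit 1 was higher by arm in kidney, and without vehicle aorta library 1 19 were higher in white fat.

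Centring, chosen after seeing the data, removes by its construction what the members share. It left arm medians of 0.0135 in aorta, -0.0336 in brain and 0.0193 in lung. It gave 18 higher and 8 lower in kidney, 9 and 9 in aorta, 11 and 19 in brain, 11 and 8 in brown fat, 4 and 11 in lung, 7 and 7 in V, 6 lower in white fat, 3 and 3 in atrium against V, and 2 for the kidney difference.

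With single libraries left out, calls ranged over 22 to 51 lower in kidney, 10 to 53 lower in V, 15 to 43 higher and 1 to 3 lower in brown fat, 4 to 19 higher and 1 to 5 lower in white fat, 28 to 65 higher in lung, 0 to 2 higher in brain, and 8 to 28 higher and 1 to 2 lower in atrium against V. White fat had 4 higher without its vehicle library 3, and 7 without kidney library 1 or 3, brain library 1, white fat library 1 or 2 or V library 2 or 3. By arm in kidney 0 to 2 were higher and 0 to 1 lower. For the difference between tissues, 0 to 2 were higher in kidney and 0 to 1 higher in lung (Rps19, without vehicle lung library 2). In aorta 0 to 5 were lower (5 without vehicle library 1). The shares of all genes called in these left-out fits are not reported here.

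With the replicate number as a block, 0 members were called by arm in every tissue, the lung median stayed at -0.20, and the Rplp1 kidney difference had an adjusted p of 0.013; the block moved no count by over 1.5 times. Outside lung, same-numbered libraries did not all correlate between the arms. Depth is unknown, and with 3 libraries a group the spread between libraries limits what the arm tests can call.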
